A study of Mus musculus with 2 samples.

Results

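Tcf1 peaks were described at 5 genes tied to the split between the CD4 and CD8 T cell lineages: Cd4, Cd8a, Cd8b1, Zbtb7b and Themis. A peak was taken as a member when its summit lay in the body of one of these genes or within 50 kb of either end, which selected 31 of the 22286 deposited peaks. Tcf1 ChIP-seq recovers DNA fragments bound by the transcription factor Tcf1, and it was performed with rabbit antiserum against full-length Tcf1 on naive CD8+ T cells sorted from mouse spleen. There was 1 WT library and 1 Tcf1-deficient library, and the authors called peaks in the WT library with the other as control.

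The sources describe the control mice differently. The sample title gives Tcf1-deficient cells, the genotype label gives Tcf1-/-Lef1-/-, and the series design gives hCD2-Cre, Rosa26-lsl-GFP mice with floxed Tcf1 and Lef1. The study's methods instead give Cd4-Cre+ Tcf7 fl/fl mice, in which Cre acts already in the thymus and Tcf7 is the only floxed gene named. The labelled phenotype of both groups was GFP+ TCRbeta+ CD62Lhi CD44lo-med CD8+, and the methods give mice of 6 to 12 weeks. WT cells carried the same Cre and reporter per the series design. The library labelled Tcf1-deficient is called the control here, and which of these genotypes it had cannot be told apart from the peak list. The list holds no expression values, so the identity of the sorted cells was not checked against marker genes.

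CD4 and CD8 are the coreceptors that help the T cell receptor recognise peptide on MHC class II or MHC class I. Double-positive thymocytes carry both, and a maturing cell switches one of them off. Cd4 is silenced in CD8+ cells through an intronic silencer, Cd8a and Cd8b1 are driven by a set of enhancers spread through their shared locus, and Tcf1 and its relative Lef1 bind DNA through an HMG box at a Tcf/Lef core. Zbtb7b encodes ThPOK, the factor that commits cells to the CD4 lineage, and Themis encodes an adaptor that tunes T cell receptor signalling during positive selection.

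Sequences are given for the peaks on which the description turns, all from mm9 and on the coding strand of the gene named. Each is centred on the summit unless an exon cut it short. Capitals mark the cores found in it, which are short sequences preferred by a family of DNA-binding proteins. The start-site peak of Cd8b1, the strongest of all 31, is shown at chr6:71272519-71272719 on the plus strand, with the 6-base Tcf/Lef core TCAAAG in capitals (read as CTTTGA on this strand).
Cd8b1 start site: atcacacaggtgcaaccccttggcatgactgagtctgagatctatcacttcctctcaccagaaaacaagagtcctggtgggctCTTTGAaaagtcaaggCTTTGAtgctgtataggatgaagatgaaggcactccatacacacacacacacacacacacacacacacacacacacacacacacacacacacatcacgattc
The Cd4 silencer peak is shown at chr6:124836073-124836273 on the minus strand, with the short Runx core TGTGGT (read as ACCACA on the other strand) in capitals.
Cd4 intron 1: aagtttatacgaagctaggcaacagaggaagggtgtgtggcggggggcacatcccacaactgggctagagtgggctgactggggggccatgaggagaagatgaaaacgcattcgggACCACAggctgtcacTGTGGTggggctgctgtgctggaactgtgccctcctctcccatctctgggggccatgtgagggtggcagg
The strongest peak of the Cd8a locus lies in the window of the Cd8 enhancer E8I and is shown at chr6:71307553-71307753 on the plus strand, with AACAAAG, a variant of the Tcf/Lef core called the HMG variant here, in capitals.
Cd8a upstream: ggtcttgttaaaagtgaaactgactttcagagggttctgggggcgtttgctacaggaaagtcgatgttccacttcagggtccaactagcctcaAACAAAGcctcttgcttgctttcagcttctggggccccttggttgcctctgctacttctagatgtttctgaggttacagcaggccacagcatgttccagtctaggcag
The peak in the window of the Cd4 proximal enhancer is shown at chr6:124850556-124850756 on the minus strand, again with the HMG variant in capitals.
Cd4 upstream: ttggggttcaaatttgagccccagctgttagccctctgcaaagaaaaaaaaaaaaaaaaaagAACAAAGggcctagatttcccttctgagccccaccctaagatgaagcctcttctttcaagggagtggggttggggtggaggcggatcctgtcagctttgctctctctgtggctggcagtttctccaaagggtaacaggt
The bases just before the Cd8a and Themis start sites are shown because peaks lay there that had no Tcf/Lef core close to their summits. They run over chr6:71323270-71323420 and chr10:28388083-28388165, both on the plus strand, and stop at the annotated first exon.
Cd8a start site: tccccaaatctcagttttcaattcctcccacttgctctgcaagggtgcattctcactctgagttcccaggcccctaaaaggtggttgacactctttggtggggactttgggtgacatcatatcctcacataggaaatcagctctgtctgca
Themis start site: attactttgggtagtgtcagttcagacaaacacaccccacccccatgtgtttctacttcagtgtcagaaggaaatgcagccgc

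Of the 31 deposited peaks at the 5 genes, 27 (87.1%) were high-confidence by the study's limits, which are a minimum of 4 for fold enrichment, 1e-05 for p and 0.05 for q as upper bounds. The same share over all deposited peaks was 85.4%, so the members passed about as often as any peak. Pileup is the number of WT fragments that cover the summit. Fold enrichment is the pileup plus 1 over the level expected from the control plus 1, and a control level under a genome-wide floor of 5.42 fragments was set to that floor by the peak caller. Because each group had a single library, there was no replicate error to compare with. The intervals of pileups and of their ratios cover counting error only. Those of the median and of shares treat the peaks as independent, although 19 of the 27 lie in the Cd8 locus.

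The 27 high-confidence peaks had a median fold enrichment of 8.10 (95% interval of the median 6.08 to 9.50), beside 6.86 over all 19042 high-confidence peaks. Their median pileup was 51 fragments, beside 44, and their median width was 609 bp, beside 484 bp. A fold enrichment of 8 or more was reached by 14 members (45.2% of the 31, beside 33.8% of all deposited peaks). A fold enrichment of 20 or more was reached by 2 (6.45%, beside 6.82%), the start-site peak of Cd8b1 and the intronic peak of Cd4. Promoters, taken as 1 kb on each side of a start site, held 8 of the 27 summits (29.6%, exact binomial interval 13.8 to 50.2%), gene bodies held 6 and intergenic DNA held 13. Over all high-confidence peaks the promoter share was 39.6%, inside that interval. The control level sat at the floor in 25 of the 27, and the highest was 9.36 fragments.

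The 5 genes fell apart in how many peaks they held. Cd8b1 and Cd8a held most of them. Cd4 held 4, with a single strong one and 2 at promoters of neighbours. Zbtb7b held 3, all at promoters of neighbours, and Themis held 1 at its start site. The plot of fold enrichment by position shows this spread.

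**Figure D1:**
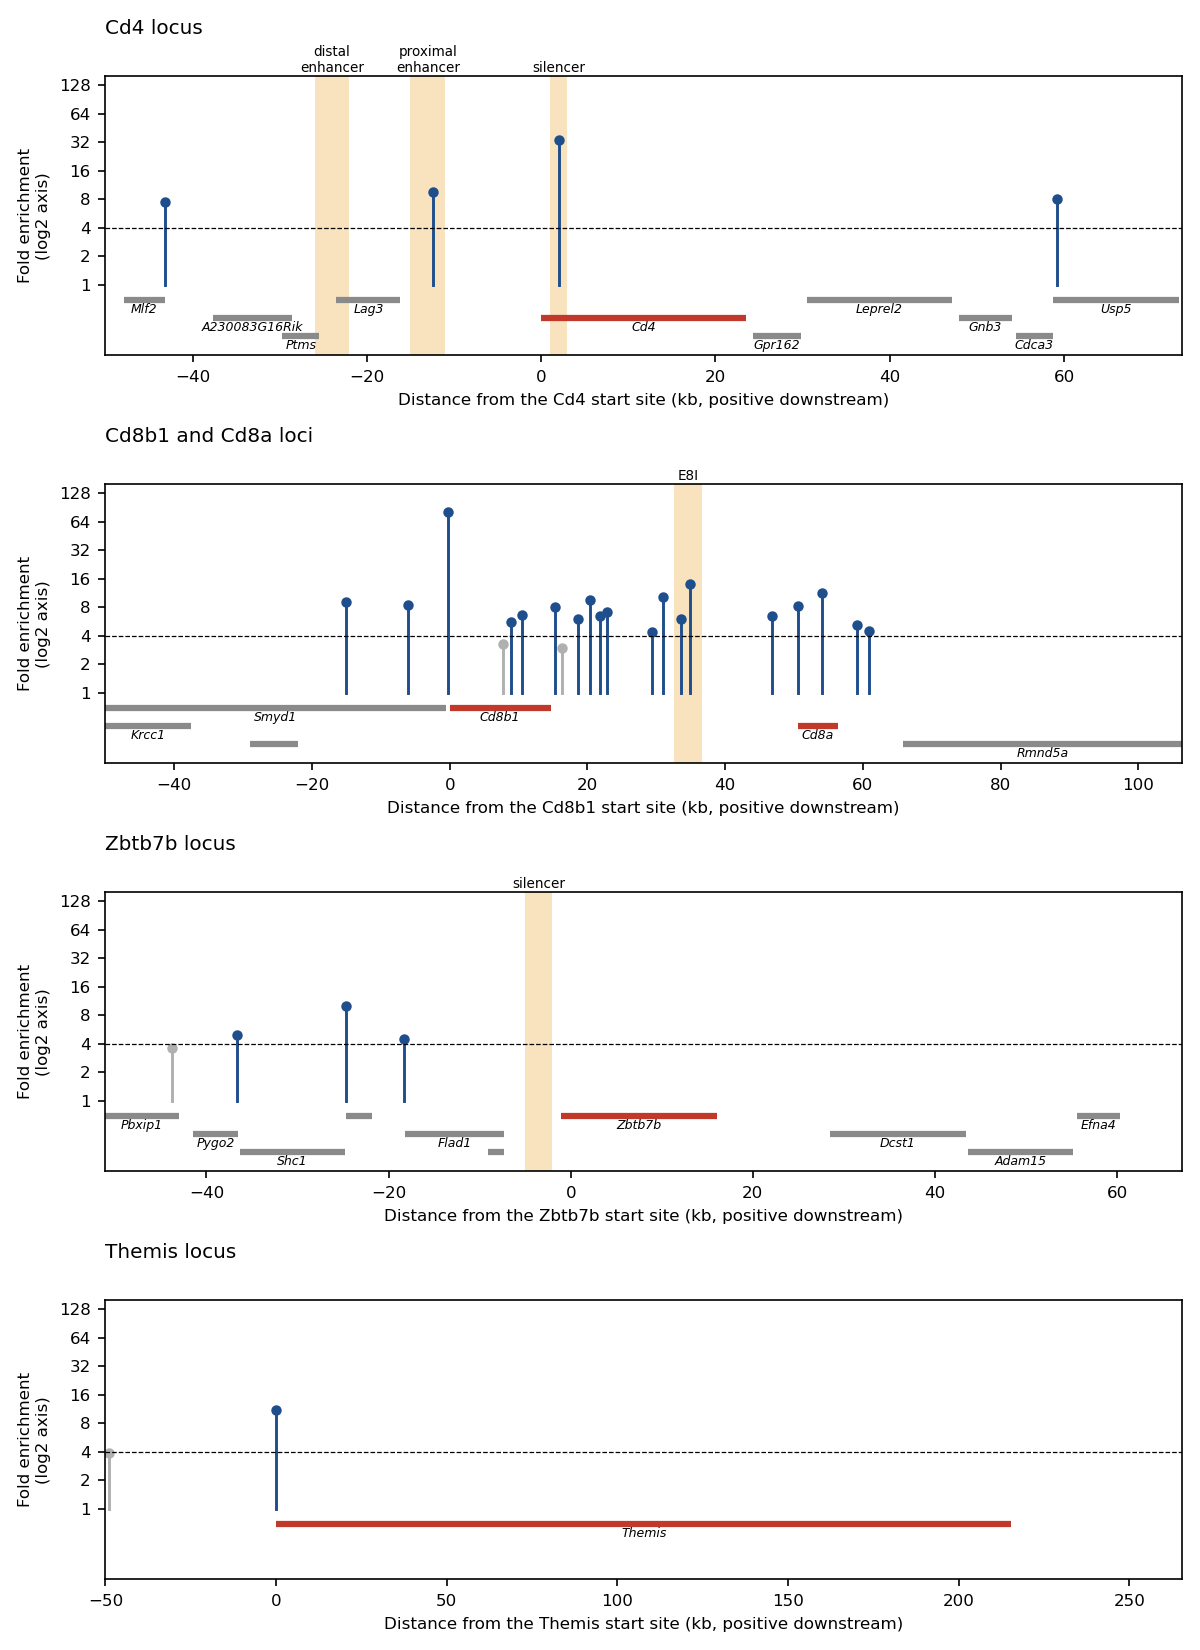
Fold enrichment of each deposited Tcf1 peak (log2 axis) against distance from the start site in kb, for Cd4, the joined Cd8b1 and Cd8a locus, Zbtb7b and Themis. Blue marks the 27 high-confidence peaks, grey the 4 under the fold minimum of 4 (dashed line), orange bands the approximate windows of known elements, red bars the 5 genes and grey bars their protein-coding neighbours. The Cd8 locus holds 19 of the 27 peaks, while the silencer windows differ, with a peak of 34.1 at Cd4 and none at Zbtb7b.

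Cd8b1 encodes the CD8 beta chain (ENSMUSG00000053044.7, chr6:71272830-71287471, plus strand). Its start-site peak at chr6:71272119-71273142 was the strongest of all members, with its summit 211 bp upstream of the start site, between Cd8b1 and the divergent neighbour Smyd1. A pileup of 520 fragments (Poisson interval 476 to 567) over a control level at the floor gave a fold enrichment of 81.2. This was the 12th highest value of the whole list, and 0.0179% of protein-coding genes had a start-site peak as strong. These genes include Cd8b1 itself and Smyd1, whose start also lies within 1 kb of this very summit. The pileup was 10 times that of the Cd8a start-site peak (exact interval of the ratio 7.51 to 13.6), 7.43 times that of the Themis start-site peak (5.78 to 9.68) and 2.39 times that of the strongest Cd4 peak (2.03 to 2.81). None of these intervals reached 1, so the difference was larger than counting error within this library. The Tcf/Lef core ATCAAAG lay 2 bp from the summit, and the short core TCAAAG occurred 2 times within 100 bp, as printed above.

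The Cd8b1 window held 21 deposited and 19 high-confidence peaks, or 16.6 per 100 kb. The same window around all 22350 protein-coding genes held a median of 1 peak, and 0.0895% of them (20 windows, Cd8b1 included) held 19 or more. A strongest peak of 81.2 or more was found in 24 windows, of which 3 others contained this very peak. The plot of counts per gene window shows where the 5 genes lie in this distribution.

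**Figure D2:**
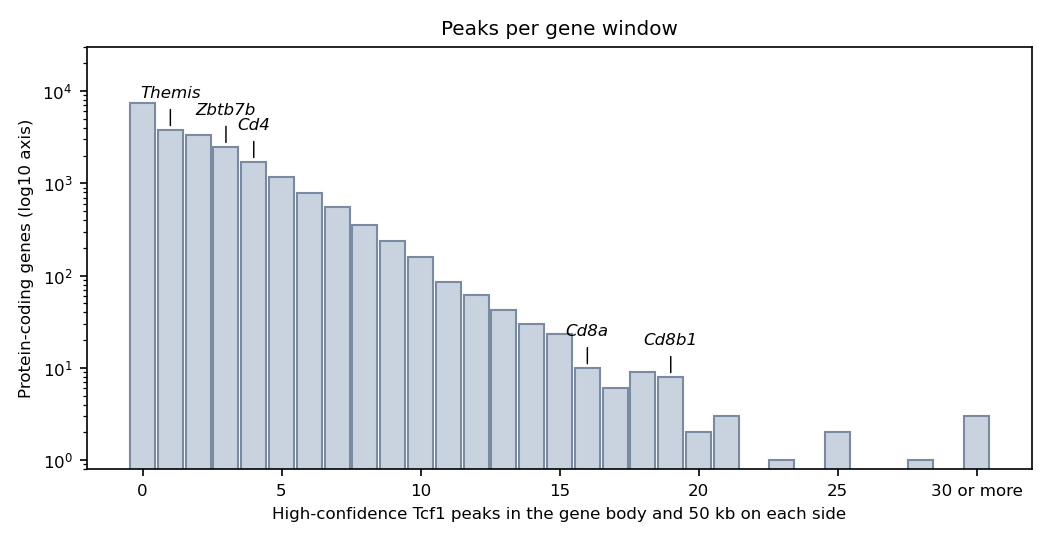
Number of protein-coding genes (log10 axis) by the number of high-confidence Tcf1 peaks in the gene body and 50 kb on each side. Themis with 1, Zbtb7b with 3 and Cd4 with 4 lie in the bulk of the distribution, and Cd8a with 16 and Cd8b1 with 19 lie in its tail.

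Other peaks around Cd8b1 were modest. Upstream, inside intron 1 of Smyd1, a muscle histone methyltransferase gene, summits lay 15.04 kb (pileup 57, fold enrichment 9.04) and 6.09 kb (pileup 53, fold enrichment 8.41) before the start site. The nearer one had a Tcf/Lef core 6 bp from its summit. Inside the gene, intron 3 held a peak 8.87 kb after the start site with a pileup of 35 and a fold enrichment of 5.61. Intron 4 held one at 10.5 kb with a pileup of 41, a fold enrichment of 6.54 and a Tcf/Lef core 78 bp from the summit. The intron 4 peak was 1958 bp wide, the widest of the members, and 0.284% of high-confidence peaks were as wide. It was therefore a broad stretch of low coverage, in contrast to the start-site peak of 1024 bp with its pileup of 520.

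Cd8a encodes the CD8 alpha chain, which pairs with the beta chain or with itself (ENSMUSG00000053977.7, chr6:71323421-71329165, plus strand). Its start site lies 50.6 kb after that of Cd8b1, and so the windows overlap. All 18 deposited and 16 high-confidence peaks of the Cd8a window were also in the Cd8b1 window, and the 2 genes are therefore no independent cases. The density of 15.1 per 100 kb and the share of 0.201% of protein-coding genes with as many peaks (45 windows) largely restate the Cd8b1 values. The strong Cd8b1 start-site peak fell 0.802 kb outside the Cd8a window.

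Most Cd8 peaks lay between the genes. The 35.9 kb between the end of Cd8b1 and the start of Cd8a held 11 high-confidence peaks with fold enrichments of 4.36 to 14.2 (median 7.17) and pileups of 27 to 90. Neighbouring summits of the whole Cd8 locus were a median of 3.42 kb apart (0.931 to 11.999 kb). Going from Cd8b1 towards Cd8a, the first 5 of the 11 peaks lay between 15.3 and 22.8 kb after the Cd8b1 start site, with pileups of 51, 38, 60, 40 and 45. The other 6 lay 21.2, 19.6, 17.0, 15.8, 3.77 and 0.051 kb before the Cd8a start site, with pileups of 27, 77, 38, 90, 66 and 52. The pileups before Cd8a thus spanned a wider range, 27 to 90, than those close to Cd8b1, 38 to 60.

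A pair of these peaks fell in the window of E8I, an enhancer active in mature CD8+ T cells that lies roughly 14 to 18 kb before Cd8a. The stronger, at chr6:71306951-71308031 and 15.8 kb before the start site, had a pileup of 90 (72.4 to 111) and a fold enrichment of 14.2. The weaker, 17.0 kb before it, had a pileup of 38 and a fold enrichment of 6.08. The E8I peak had the highest pileup of the Cd8a window, 1.17 times that of the next by pileup, 19.6 kb before the start site (0.853 to 1.61), and so these neighbours did not differ beyond counting error. It held the HMG variant 4 bp from its summit and a pair of Tcf/Lef cores farther out, 440 and 548 bp away. The farther pair is shown because no such core lay near the summit, with the core in capitals (read as CTTTGAT on the plus strand, chr6:71307185-71307241 and chr6:71307077-71307133).
E8I core at 440 bp: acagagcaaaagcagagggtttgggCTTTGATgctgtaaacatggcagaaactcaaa
E8I core at 548 bp: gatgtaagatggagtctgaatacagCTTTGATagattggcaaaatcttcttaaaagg

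At the Cd8a start site itself the summit lay 51 bp upstream, with a pileup of 52 (38.8 to 68.2) and a fold enrichment of 8.26, a value that 11.3% of protein-coding genes matched or exceeded at their start sites. A peak in intron 4 of Cd8a, 3.42 kb after the start site, was higher, with a pileup of 72 and a fold enrichment of 11.4. Beyond the gene, peaks 8.50 and 10.2 kb after the start site had fold enrichments of 5.14 and 4.52. The gene thus carried a modest start-site peak flanked on both sides by peaks of the same order.

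The peaks 3.77 and 19.6 kb before Cd8a were the only high-confidence members with a control level over the floor, at 9.36 and 6.69 fragments. Their fold enrichments of 6.47 and 10.1 were therefore lower than their pileups of 66 and 77 would have given at the floor. The first held the only Runx core, TGTGGTT, found within 100 bp of a high-confidence member summit, 61 bp away.

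**Figure D3:**
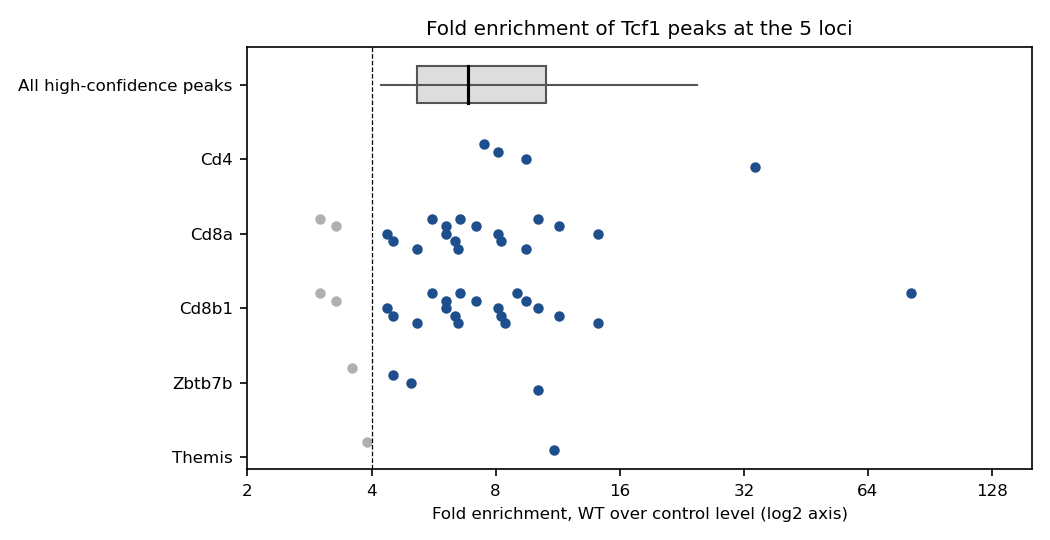
Fold enrichment (log2 axis) of each deposited peak by gene, with blue for high-confidence peaks and grey for those under 4 (dashed line). The top row gives all 19042 high-confidence peaks as median (6.86), quartiles (box) and 5th to 95th percentile (line), and peaks shared by Cd8a and Cd8b1 appear in both rows. Only the start-site peak of Cd8b1 at 81.2 and the intronic peak of Cd4 at 34.1 exceed the 95th percentile of 24.6.

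Cd4 encodes the CD4 coreceptor, which CD8+ T cells keep silent (ENSMUSG00000023274.7, chr6:124814710-124838239, minus strand). Of its 4 peaks, the strongest at chr6:124835104-124836569 lay in intron 1, 2.07 kb after the start site and inside the window of the Cd4 silencer. Its pileup was 218 fragments (190 to 249) and its fold enrichment 34.1, a value ranked 409th in the whole list and met by the strongest peak of 3.30% of protein-coding windows. It exceeded the next Cd4 peak 3.63 times in pileup (2.72 to 4.92) and the strongest Cd8a peak 2.42 times (1.89 to 3.13). The pair within Cd4 was picked by rank on the same values, so its direction was fixed beforehand. At 1466 bp the intron 1 peak was also broad, and 1.62% of high-confidence peaks were as wide.

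None of the Tcf/Lef cores of this peak was within 100 bp of its summit. The peak as a whole held a pair of ATCAAAG cores, 494 and 846 bp from the summit towards the gene's interior. It also held 2 Runx cores, 133 and 353 bp away, and 6 short Runx cores, of which 2 were within 100 bp and the nearest 18.5 bp away. Runx factors are known to act on this silencer. The 4 stretches are given on the minus strand with the core in capitals, at chr6:124835651-124835707, chr6:124835299-124835355, chr6:124836278-124836334 and chr6:124835792-124835848 in that order.
Tcf/Lef core at 494 bp: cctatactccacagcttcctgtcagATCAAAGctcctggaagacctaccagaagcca
Tcf/Lef core at 846 bp: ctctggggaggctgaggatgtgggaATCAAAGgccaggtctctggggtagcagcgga
Runx core at 133 bp: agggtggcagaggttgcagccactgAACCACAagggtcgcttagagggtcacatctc
Runx core at 353 bp: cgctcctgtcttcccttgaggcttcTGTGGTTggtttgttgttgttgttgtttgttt

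The second Cd4 peak, at chr6:124850462-124850912, lay 12.4 kb before the start site in the window of the proximal enhancer, which drives Cd4 in T cells. Its pileup was 60 (45.8 to 77.2) and its fold enrichment 9.50, and the HMG variant lay 35 bp from the summit. The other pair was at promoters of neighbours, Mlf2 (43.1 kb before Cd4, pileup 47, fold enrichment 7.48) and Usp5, a deubiquitinase gene (59.2 kb after the start site, pileup 51, fold enrichment 8.10). No deposited peak lay at the Cd4 start site or in the window of the distal enhancer, 22 to 26 kb upstream. The smallest pileup of any deposited peak at the control floor was 18, so weaker binding there was not detectable at this depth. A count of 4 was not unusual, since 23.5% of protein-coding windows held as many.

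The known elements of these genes can be read together. Only E8I was placed among the Cd8 enhancers, so the count leaves out the others. Of 5 windows placed from general knowledge of the loci, 3 held a high-confidence summit: the Cd4 silencer (34.1), the Cd4 proximal enhancer (9.50) and E8I (14.2 and 6.08). The Cd4 distal enhancer and the Zbtb7b silencer held no deposited peak. Neighbouring summits of the Cd8 locus were a median of 3.42 kb apart, so a window as wide as that of E8I often holds a summit there. The 5 windows were placed with earlier results of these data known, and no share over equal windows elsewhere was computed. These windows are approximate, since the positions were not taken from the files.

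Zbtb7b (ENSMUSG00000028042.8, chr3:89181566-89198698, minus strand) had 4 deposited peaks in its window, and none lay in the gene, at any of its 9 protein-coding start sites or in the window of its silencer 2 to 5 kb upstream. That silencer keeps ThPOK off in CD8+ cells. All 4 summits were at promoters of upstream neighbours. Those were Flad1 (18.3 kb upstream, pileup 28, fold enrichment 4.52), Cks1b (24.7 kb, pileup 64, fold enrichment 10.1), Pygo2 (36.6 kb, pileup 31, fold enrichment 4.99) and Pbxip1 (43.8 kb, pileup 22, fold enrichment 3.58, under the minimum). Flad1 makes FAD synthase, Cks1b a subunit of cyclin-dependent kinases, and Pygo2 a cofactor of beta-catenin, the partner of Tcf1. The Cks1b peak exceeded the next one 2.06 times in pileup (1.32 to 3.28). This pair was picked by rank on the same values, so the direction was fixed beforehand. Nothing set the window apart by count or strength, as 34.7% of protein-coding windows held 3 or more peaks and 33.4% had a strongest peak as strong. The nearest peak on the other side of the gene lay 27.9 kb beyond the window, with a fold enrichment of 3.74.

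Themis (ENSMUSG00000049109.8, chr10:28388166-28603624, plus strand) had 1 high-confidence peak, at chr10:28387887-28388761, with its summit 17 bp after the start site. The pileup was 70 (54.6 to 88.4) and the fold enrichment 11.1, a value met by 5.85% of protein-coding genes at their start sites. It did not differ beyond counting error from the Cd8a start-site peak, with a ratio of pileups of 1.35 (0.927 to 1.97). A Runx core lay in it, 234 bp from the summit. The gene is 215 kb long and held no other peak in its body. Of 244 protein-coding genes of at least 200 kb with a start-site peak, 58 (23.8%) likewise had no other peak in the body. A second deposited peak, 48.8 kb before the start site, reached a pileup of 29 over 6.69 fragments expected from the control, which gave a fold enrichment of 3.90, under the minimum. It had a Runx core within 100 bp of its summit.

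In the 100 bp on each side of the 27 high-confidence summits, searched on both strands, the Tcf/Lef core ATCAAAG occurred in 4 (14.8%, exact interval 4.19 to 33.7%). It occurred in 10.2% of all high-confidence peaks and in 3.31% of windows 2 kb to each side of them. All 4 were in the Cd8 locus, which held 19 of the 27 peaks. They lay at the Cd8b1 start site and 6.09 kb before, 10.5 kb after and 15.3 kb after it. The short core TCAAAG, which is part of ATCAAAG, occurred in 9 members (33.3%, beside 26.4% of all and 13.9% of flanks). The HMG variant AACAAAG occurred in 4 (14.8%, beside 6.96% and 5.44%). These members' shares had wide intervals, 16.5 to 54.0% for the short core, that included the shares over all peaks. The core spelled backwards, GAAACTA, occurred in 1 (3.70%), beside 2.40% of all.

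The Runx core TGTGGTT occurred in 1 of the 27 (3.70%, 0.0937 to 19.0%), beside 15.5% of all high-confidence peaks and 5.24% of flanks. Its short form TGTGGT occurred in 3 (11.1%, 2.35 to 29.2%), beside 31.5%, which lay above the members' interval. That interval treats the 27 peaks as independent, although 19 of them lie in the Cd8 locus. A Runx variant, TGCGGTT, occurred in 0 (exact interval up to 12.8%), beside 2.29%. The ETS core CGGAAGT occurred in 3 (11.1%), beside 6.93% of all and 0.549% of flanks. These 3 were at the Mlf2 promoter, the Flad1 promoter and the peak 20.4 kb after the Cd8b1 start site. The reversed Runx and ETS cores TTGGTGT and TGAAGGC each occurred in 2 (7.41%), beside 3.08% and 3.65% of all. The plot of core positions shows that several Runx cores of these peaks fell just outside the searched 100 bp, and with 200 bp the Runx count was 5 (18.5%, 6.30 to 38.1%), beside 19.99% of all high-confidence peaks in the same window.

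**Figure D4:**
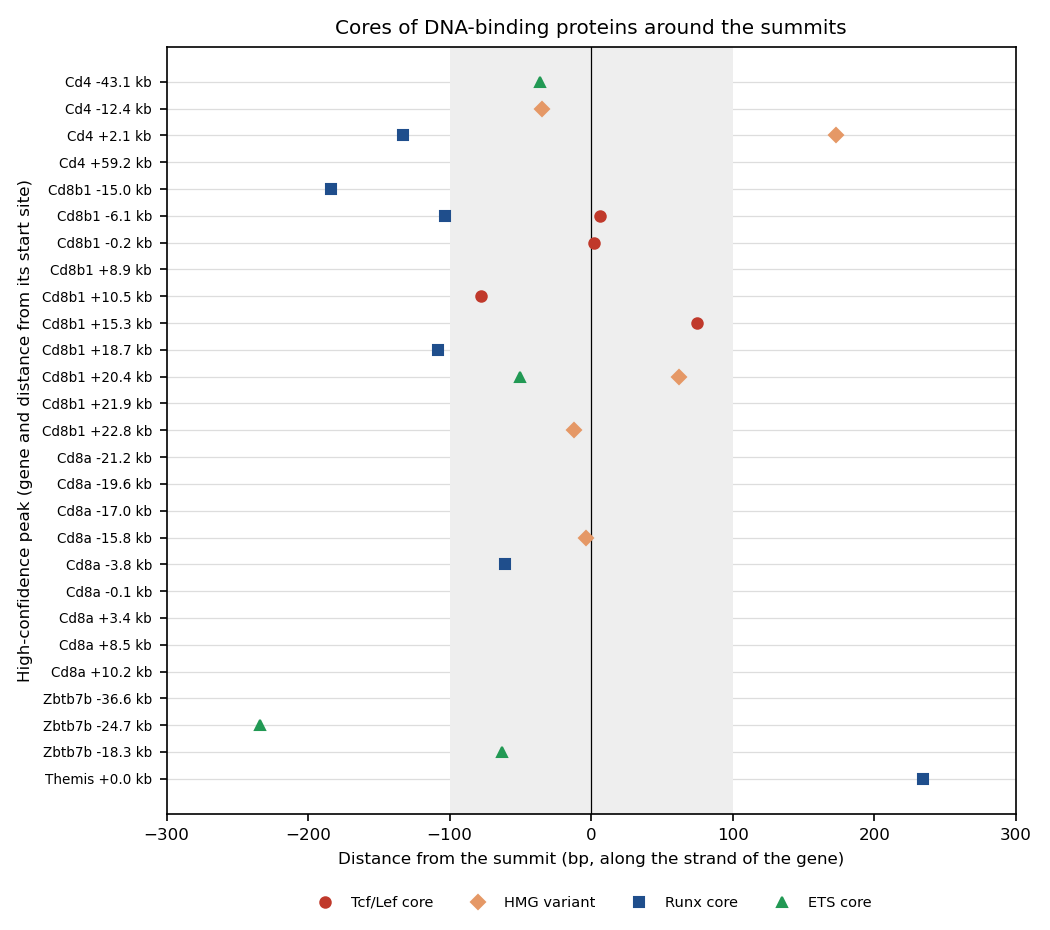
Distance in bp from the summit of 4 kinds of core, out to 300 bp, along the strand of the gene, for the 27 high-confidence peaks (rows, named by the nearer of the 5 genes and the distance from its start site). The grey band is the searched 100 bp on each side. Of the cores plotted, the 4 Tcf/Lef cores and 1 of the Runx cores lie inside it. All 4 Tcf/Lef cores are in the Cd8 locus, which holds 19 of the 27 peaks. Cores farther out, such as those of the Cd4 intron 1 and E8I peaks, are not shown.

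Among 23 other regulators of the lineage choice and T cell receptor signalling, each with its own window, all had a high-confidence peak and 22 had one at the start site, the exception being Myb. Over all protein-coding genes, 66.5% of windows held a peak and 32.8% of genes had one at the start site. The list was chosen with earlier results of these data known, and its windows differed in width, up to 405 kb for Tox. The shares are therefore set side by side as a description only. A 24th gene, Themis2, was not analysed here. The median number was 9 peaks and the median strongest fold enrichment 27.6. The strongest were Tcf7, which encodes Tcf1 itself (142), and the Runx family genes Runx3 (66.1) and Runx1 (61.1). Of these, only Tcf7 had a peak as strong as that of Cd8b1, and 9 had one as strong as that of Cd4. Tcf7 and Lef1 each had 19 peaks, the number found for Cd8b1. Themis, Zbtb7b and Cd8a had strongest peaks of 11.1, 10.1 and 14.2, under the median of this list but at or above the median of 10.1 over all protein-coding windows with a peak. A strongest peak as strong was found in 29.96% of protein-coding windows for Themis and 21.7% for Cd8a.

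By number of peaks and strength of the strongest, the protein-coding genes most like Cd8b1 were Arl4c (19 peaks, 59.8) and Tcf7 (19, 142). For Cd8a they were Acoxl (16, 19.5) and Gpr183 (16, 26.3). The other members had close matches among many genes with the same count: Wdyhv1 (34.1) and Atp6v1e1 (34.2) for Cd4 among 1709, 0610009B22Rik and Atg9b (both 10.1) for Zbtb7b among 2490, and Agtpbp1 and Ctnnb1 (both 11.1) for Themis among 3804.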

How the data were processed

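Both libraries of Tcf1 ChIP-seq, 1 per group, were represented by 1 deposited peak list. The authors aligned paired reads to mm9 with Bowtie2 (version 2.2.5) and called peaks with MACS2 (version 2.1.1.20160309) at p under 1e-05. Per the file headers, 36938606 of 46428124 WT fragments (79.6%) and 27625250 of 36118114 control fragments (76.5%) were kept after duplicate removal. The deposited pileup is an unscaled signal (coverage), the deposited fold enrichment is a ratio with a pseudocount of 1, and the deposited −log10 p and q compare the 2 libraries, not the genotypes. The control level was computed back from pileup and fold enrichment.

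Genes came from GENCODE vM1 and sequence from NCBIM37, the same build. Summits were assigned to windows of 50 kb beyond each gene end, and distances were taken from the most upstream protein-coding start site. Pileups received exact Poisson intervals, shares exact binomial (Clopper-Pearson) intervals, and ratios of pileups exact conditional intervals, all at 95%. Because a difference between 1 library per group has no replicate error, no test was made. Named were the members, the genes nearest to or around their peaks, the 3 listed regulators with the strongest peak and any without one, and the 2 genes most like each member (same number of peaks, nearest strongest fold enrichment, shared peaks left out). Myb and Lef1 were named after their values were seen. The members, lists, element windows and cores were chosen with earlier results of these data known. Alternatives covered the fold minimum, window, search distance, core length, pseudocount and measure of strength. The code was tested on simulated peak lists in Python (version 3.11.15) with pandas (2.3.3) and scipy (1.17.1).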

Additional observations from a re-analysis of the deposited data

Results flagged for a closer look

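Some deposited peaks that the counts do not include had WT signal above the control level. The peaks under the fold minimum had fold enrichments of 3.27 and 2.99 in the Cd8 locus (7.77 and 16.3 kb after the Cd8b1 start site, pileup 20 each), 3.58 at the Pbxip1 promoter upstream of Zbtb7b and 3.90 upstream of Themis.

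Beyond the Themis window, inside the neighbouring gene Ptprk, which encodes a receptor tyrosine phosphatase, peaks 74.4 and 71.3 kb before the Themis start site had fold enrichments of 30.1 (pileup 192) and 15.1 (pileup 96). A further peak 100.7 kb before it had 30.4 (pileup 194). All 3 exceeded the Themis start-site peak in both measures, and which gene they act on was not tested.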

How the results depend on the processing

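No paired analysis was possible because each group had 1 library and no test was made. Of 92 alternatives over 16 results, 35 kept a count within 1.5 times, or a share or median within its own 95% interval, and 57 did not. The intervals of shares over 22350 windows are narrow, so small changes count as moved there. The direction of every value is fixed by peak calling, since all peaks are higher in WT. The number of element windows with a summit was 3 under every alternative run. The promoter share ranged from 18.8% (flank of 10 kb) to 36.4% (100 kb), inside its wide interval.

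A fold minimum of 8 left 14 high-confidence peaks with a median of 9.82, and a flank of 10 kb left 16. Tcf/Lef cores numbered 2 within 50 bp (7.41%, beside 8.21% of all high-confidence peaks) and 9 with the 6-base core (33.3%, beside 26.4%). Runx cores numbered 0 at a fold minimum of 8 and 2 with no minimum. Within 50 bp they numbered 0 (exact interval up to 12.8%, beside 10.6% of all high-confidence peaks). Within 200 bp they numbered 5 (18.5%, beside 19.99%), and with the 6-base core 3 (11.1%, beside 31.5%).

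The share of protein-coding windows with as many peaks moved as follows. At a fold minimum of 5 it was 15.8% for Cd4, 0.0537% for Cd8b1 and 60.8% for both Zbtb7b and Themis. At a minimum of 8 it was 9.86% for Cd4, 1.11% for Cd8a, 0.201% for Cd8b1 and 43.1% for Zbtb7b and Themis. With no minimum it was 28.1% for Cd4 and Zbtb7b, 0.277% for Cd8a, 0.170% for Cd8b1 and 53.9% for Themis. With a flank of 10 kb it was 48.7% for Cd4 and Themis, 2.93% for Cd8a, 0.573% for Cd8b1 and 100% for Zbtb7b, which then held no peak. With 100 kb it was 26.1% for Cd4, 0.327% for Cd8a and Cd8b1, and 52.1% for Zbtb7b and Themis. Over genes with a peak it was 35.3% for Cd4, 0.303% for Cd8a, 52.1% for Zbtb7b and 100% for Themis.

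The share of windows with a strongest peak as strong was, with a flank of 10 kb, 1.42% for Cd4, 14.8% for Cd8a, 0.0492% for Cd8b1 and 15.5% for Themis. Zbtb7b gave no value there. With 100 kb it was 5.76% for Cd4, 0.166% for Cd8a and Cd8b1, 46.0% for Zbtb7b and 8.11% for Themis, because the Cd8a window then held the Cd8b1 start-site peak and the Themis window a peak in Ptprk. By pileup it was 4.05% for Cd4, 23.0% for Cd8a, 0.219% for Cd8b1, 34.8% for Zbtb7b and 31.3% for Themis. Over genes with a peak it was 4.96% for Cd4, 32.6% for Cd8a, 0.161% for Cd8b1, 50.2% for Zbtb7b and 45.0% for Themis.

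Chosen after seeing the data, merging peaks less than 1 kb apart left 23 high-confidence peaks, and asking that the lower Poisson bound reach the fold minimum left 21. At the control floor a fold enrichment of 4 needed a pileup of 25, so weak peaks are the least certain.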
